A study of Homo sapiens with 12 samples.

Results

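Digestion with the exonuclease Xrn1 was examined in RNA of uninduced cells: 3 Xrn1-treated samples (CM4X, CM5X and CM6X) were set against 3 untreated samples (CM4, CM5 and CM6), chosen by their labels from the 12 samples of the series, over all 16883 genes that could be measured. The cells were U2OS, a human osteosarcoma line, stably carrying K294A under doxycycline control. The samples compared here were given no doxycycline, so K294A was present in the genome of every group and not induced in either of these. The other 6 samples had received doxycycline (1 ug/ml, 24 h), 3 without and 3 with Xrn1. They enter here only for the pooled spread, for the sorting of genes by level and for 1 comparison of the enzyme's effect. Each sample was RNA of a cytoplasmic extract from which ribosomal RNA had been removed, and the enzyme was added to the isolated RNA in vitro. The sample titles call them biological replicates. The labels do not state whether the line is 1 clone, how much K294A escapes induction, or whether the replicates were separate cultures. Each p therefore measures the spread between these samples, which may be technical. In the main fit that spread is pooled over all genes.

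A messenger RNA normally begins with a cap, a methylated guanosine joined through a triphosphate bridge, which keeps 5' exonucleases off the RNA. Xrn1 is the main cytoplasmic 5'-to-3' exonuclease and acts on RNA that begins with a single phosphate, as is left after decapping or after an internal cut. A cytoplasmic form of the capping enzyme can restore caps on some uncapped RNAs, and K294A, in which the active-site lysine of that enzyme is replaced, is inactive. In the uninduced cells the comparison asks which cytoplasmic RNAs lose signal when RNA is exposed to the enzyme while the cells' own capping is left alone.

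Levels are log2 array values and changes are Xrn1 minus untreated on that scale. The deposited values were normalised across arrays, which makes every change relative to the other RNAs measured. After normalisation, 1114, 760 and 914 genes lay above a level of 6 on the untreated arrays, against 110, 151 and 145 on the Xrn1 arrays. The second replicate of each group, CM5 and CM5X, stood apart. CM5 was lower than both other untreated samples by more than 1 for 3281 genes and higher by more than 1 for 23. CM5X was lower than both other Xrn1 samples by more than 1 for 249 genes and higher for 41. Across genes, which are not independent replicates, CM5X correlated at 0.847 with Xrn1 replicate 3 and at 0.711 with Xrn1 replicate 1 of its own group, and at 0.758 with the first induced untreated array. Results without CM5 and CM5X are therefore also given for the counts over all genes, the level classes and some of the genes and lists.

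More genes were lower than higher after Xrn1. Of 16883 genes, 6590 (39.0%) passed a limma adjusted p of 0.05, and 5367 (31.8%) were lower against 1223 (7.24%) higher. The 3 Xrn1 values lay wholly below the 3 untreated values for 5672 genes (33.6%) and wholly above them for 1884 (11.2%), together 44.8% of genes. Both criteria were met by 4724 lower and 1039 higher genes. The median change over all genes was -0.27, 1310 genes fell by more than 2 and 203 by more than 3, whereas 1 gene rose by more than 2. The lowest untreated value exceeded the highest Xrn1 value by more than 2 for 575 genes, and the reverse gap exceeded 1 for 5.

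The higher calls depended on CM5, CM5X and the scaling. Without CM5 and CM5X, 5680 genes (33.6%) were lower and 278 (1.65%) higher, and 4628 of the lower but 221 of the higher genes kept their call. With each gene's own spread in place of the common one, 4286 (25.4%) were lower and 1135 (6.72%) higher, 32.1% in all. Cyclic loess, which levels any difference between arrays that follows intensity, gave 3692 lower (21.9%) and 3695 higher (21.9%), 43.8% in all, and moved the median of all genes to 0.07. Centring each array on its median gene gave 4294 lower (25.4%) and 3930 higher (23.3%), with a median of 0.09. For 2953 genes a fall was called in the main fit, without CM5 and CM5X, with each gene's own spread and after cyclic loess. The group values of these genes also did not overlap. A rise met the same conditions for 180 genes.

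The change followed the level of the RNA. Genes were sorted into 5 classes of equal size by their mean on the 3 induced untreated arrays, which are not part of the comparison. From the dimmest to the brightest class, 8.02%, 14.9%, 21.8%, 40.2% and 74.1% of genes were lower, and 6.87%, 12.9%, 9.59%, 5.12% and 1.75% were higher. The median changes were -0.04, 0.16, -0.10, -0.56 and -1.43 on 6 arrays and 0.18, 0.12, -0.24, -0.85 and -1.68 without CM5 and CM5X. In the brightest class the median gene stood at 5.59, 5.10 and 5.45 on the untreated arrays and at 3.91, 3.99 and 4.09 on the Xrn1 arrays, with no overlap. In the fourth class it stood at 4.33, 3.40 and 4.37 and 3.39, 3.50 and 3.54, and there CM5 lay within the range of the Xrn1 arrays. After cyclic loess the class medians were -0.00, 0.38, 0.28, -0.04 and -0.41, with the brightest class the lowest. An array effect that depends on intensity and a loss that depends on abundance cannot be told apart in this design.

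**Figure D1:**
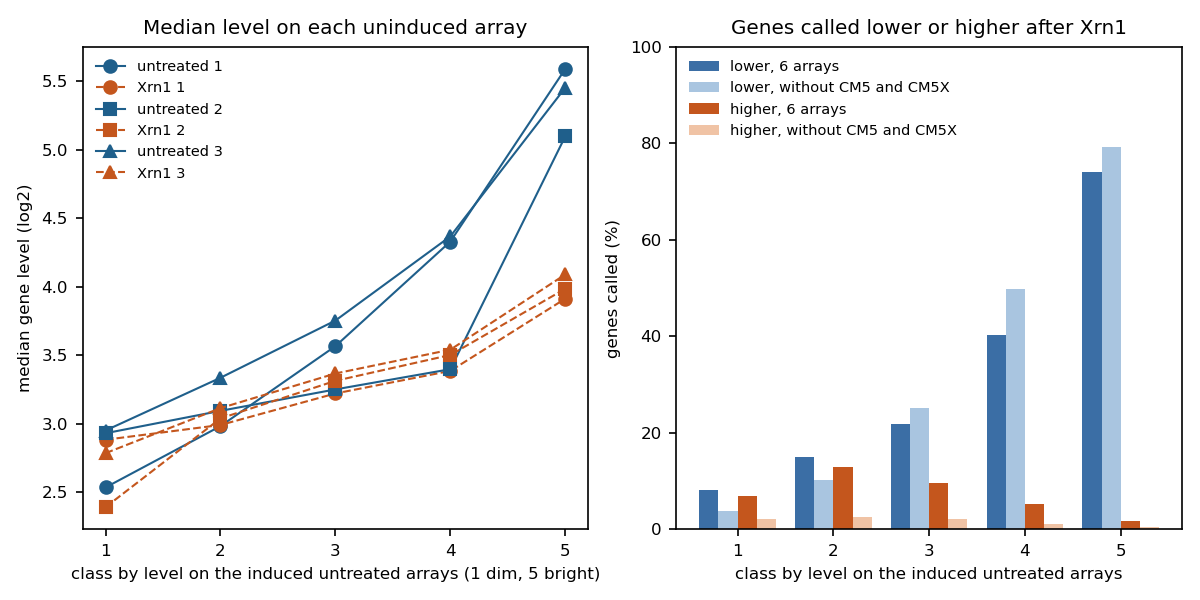
Median gene level on each of the 6 uninduced arrays (left, log2) and percent of genes called lower or higher after Xrn1 with and without CM5 and CM5X (right), both by class of level on the induced untreated arrays. The 3 Xrn1 arrays lie below the 3 untreated arrays in the brightest class, where 74.1% of genes were lower.

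Genes that fell had a median untreated level of 4.67 and a median level of 3.10 after Xrn1, while those that rose went from 2.43 to 3.42. A falling gene was read by a median of 16 probe sets and a rising one by 7. The share of probe sets that were lower had a median of 89.5% in falling and 0% in rising genes. For 1139 falling genes every kept probe set was lower. The calls rest on the mean of these same probe sets, so the shares are no separate evidence. Both directions also moved with the number of probe sets and the base composition of the promoter. From the genes with the fewest to those with the most probe sets, in 5 classes, 12.6%, 23.3%, 34.9%, 42.4% and 45.8% were lower and 14.7%, 8.89%, 6.13%, 3.70% and 2.81% higher. For 13269 genes with a RefSeq promoter, the share called higher was 15.4% in the fifth with the lowest promoter GC and 4.63% to 6.59% in the other 4 classes. Without CM5 and CM5X the share called higher was 3.2% in the fifth with the lowest GC and 0.79% to 1.62% in the others. By number of probe sets it was then 5.03%, 1.81%, 0.83%, 0.30% and 0.27%. These classes share the level of the genes, and their own part in the changes was not tested.

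The largest falls were those of SLC38A2, ND4 and LPCAT3. SLC38A2, a sodium-coupled transporter of neutral amino acids that cells induce when amino acids run short, stood at 8.67, 8.84 and 8.39 without and at 4.32, 3.65 and 4.63 with the enzyme, a change of -4.43 ± 0.34 (SE; limma adjusted p = 2.97e-34). LPCAT3, an acyltransferase that remodels membrane phospholipids, stood at 8.53, 8.61 and 8.04 and then at 4.81, 3.54 and 4.43 (-4.13). In both genes the highest Xrn1 value was far below the lowest untreated one. BMPR1A, a type I receptor for bone morphogenetic proteins, went from 7.11, 6.79 and 6.90 to 2.87, 2.83 and 3.21, and CLTC, the clathrin heavy chain, from 8.05, 8.09 and 7.71 to 3.92, 3.81 and 4.42. HIF1A, the oxygen-regulated subunit of the hypoxia factor, had untreated levels of 7.19, 6.94 and 6.53 and Xrn1 levels of 3.32, 2.70 and 3.03. The Xrn1 samples were the lower 3 in each of these genes, and the change without CM5 and CM5X was -3.97 for BMPR1A, -3.71 for CLTC and -3.68 for HIF1A. The other genes among the 12 largest falls were ND4 of the mitochondrial genome (-4.15), RNFT1 (-3.96), the initiation factor subunit EIF3L (-3.90), ERGIC2 of the compartment between ER and Golgi (-3.82), AZIN1, an inhibitor of antizyme that sustains polyamine synthesis (-3.81), the importin KPNA2 (-3.80) and SLC71A2 (-3.79). All 12 were also lower after cyclic loess, without CM5 and CM5X and with each gene's own spread. The SE of 0.34 is common to all genes. With limma and each gene's own spread the adjusted p was 0.00064 for both BMPR1A and CLTC.

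**Figure D2:**
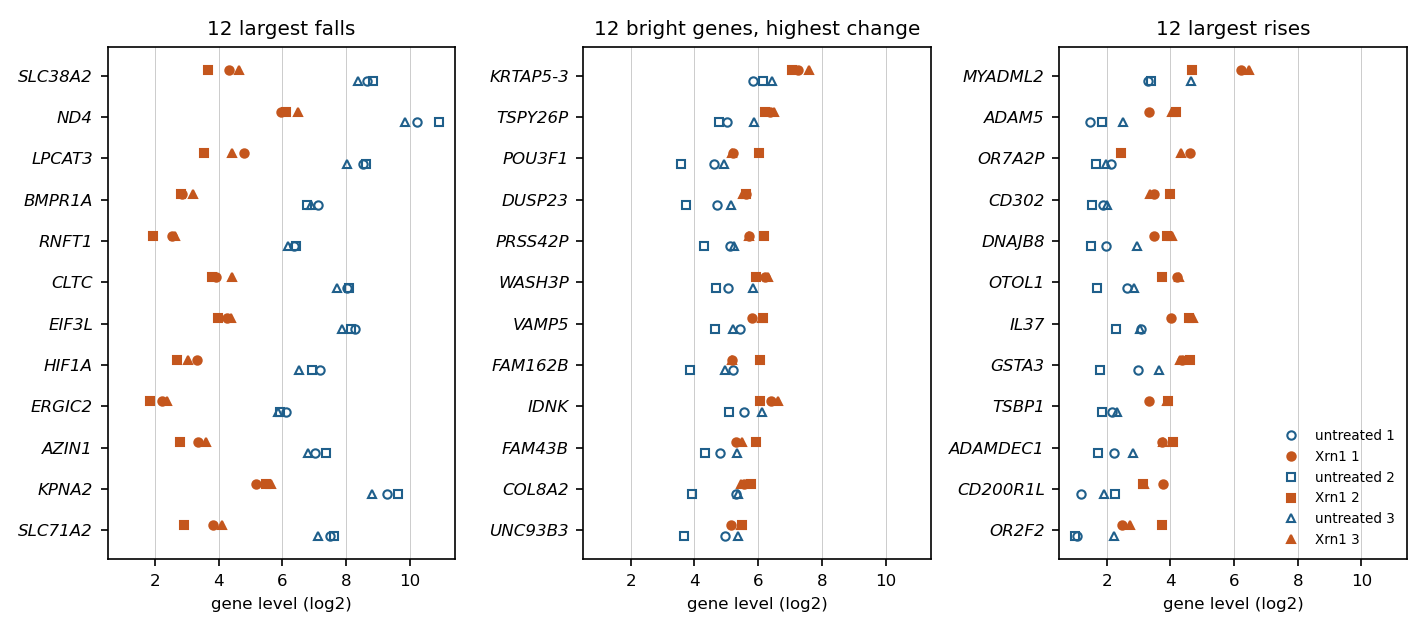
Level (log2) of the 12 genes with the largest falls, the 12 bright genes with the highest change and the 12 genes with the largest rises on each uninduced array; open blue symbols are untreated and filled orange symbols Xrn1, with 1 symbol shape per replicate. In the left panel the untreated and Xrn1 symbols do not overlap for any gene, while the largest change in the middle panel is 1.16.

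Of all genes, the background for the gene lists that follow, 31.8% were lower and 7.24% higher. After cyclic loess these shares were 21.9% and 21.9%. Of the 1689 brightest genes on the induced untreated arrays 85.2% were lower. Mitochondrially encoded mRNAs carry no nuclear-type cap and are made inside the organelle, which a cytoplasmic extract can release. All 10 measured ones fell, with a median of -3.27. ND4 stood at 10.23, 10.93 and 9.87 untreated and 5.96, 6.13 and 6.49 after Xrn1, and ND2, another complex I subunit, at 10.56, 10.44 and 9.85 untreated and 6.28, 6.92 and 6.47 with Xrn1. COX3, a subunit of cytochrome oxidase, changed by -3.44 and ND1 by -3.43. The smallest fall was that of ND6 (-1.65), named after its values were seen. After cyclic loess 6 of the 10 were lower, with a median of -0.78, and ND6 turned to 0.32.

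A pair of RNA polymerase III transcripts, which carry no 7-methylguanosine cap, did not fall on the deposited scale. BCYRN1, a primate cytoplasmic RNA that binds poly(A)-binding protein, stood at 7.51, 7.70 and 7.72 untreated and at 8.03, 8.74 and 8.13 after Xrn1, so that all 3 Xrn1 values were the higher ones, and its change of 0.66 did not pass (adjusted p = 0.110). RN7SK, the RNA that holds the elongation factor P-TEFb inactive, stood at 11.21, 11.24 and 11.43 untreated and 10.45, 11.66 and 10.77 with Xrn1, with overlapping groups (adjusted p = 0.471). Both were higher after cyclic loess, by 2.80 and 2.42, which turned the direction of RN7SK.

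Long noncoding RNAs that mostly stay in the nucleus were also on the arrays. Of 8 measured, 3 fell (37.5%, close to the 31.8% of all genes): TUG1 (-3.40), the speckle RNA MALAT1 (-2.70) and the paraspeckle RNA NEAT1 (-1.57). MALAT1 stood at 5.99, 5.80 and 5.42 untreated and at 3.09, 2.65 and 3.38 after Xrn1. All 3 also passed after cyclic loess. Of 19 transcripts that host small nucleolar RNAs in their introns, 6 fell (31.6%, the share among all genes being 31.8%), with a median of -0.48, and SNHG1 changed by -1.95. After cyclic loess 3 were lower and 2 higher. Replication-dependent histone mRNAs end in a stem-loop and not in poly(A). Of 13 measured, 6 fell, with H1-4 at -1.72 and H2AC21 at -1.69, but cyclic loess gave 0 lower and 5 higher and turned both genes, to 0.69 and 0.46.

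Messenger RNAs of the translation machinery often begin with a TOP motif, a C followed by a run of pyrimidines, through which their translation is tied to growth signals. The stretches around the first-listed RefSeq start (GRCh38.p14), 10 bases before and 15 from the start on, are shown for 4 genes with that motif, of which 2 fell and 2 did not pass, and for 3 of the genes with the largest falls, which lack it. They are examples chosen after their values were seen, and the comparison below rests on all genes with a start. Capitals mark the C and the 4 pyrimidines that follow it, or the first base of the RNA where the motif is lacking.
EEF2, chr19:3985449-3985473, minus strand: cgtcagcgttCTCTTccgccgtcgt
RPLP0, chr12:120201097-120201121, minus strand: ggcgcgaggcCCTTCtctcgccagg
RPL35, chr9:124861943-124861967, minus strand: cgcctacttcCTCTTtccctcggag
RPS18, chr6:33272065-33272089, plus strand: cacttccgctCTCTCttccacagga
SLC38A2, chr12:46372759-46372783, minus strand: gggctgctccAcagccgcgcgacgc
BMPR1A, chr10:86755753-86755777, plus strand: cagtcctgttGggccctcgccgctc
CLTC, chr17:59619885-59619909, plus strand: cgctgggctcAgccgtttccggagt
EEF2, the elongation factor of translocation, has the motif and fell by 2.30, and RPLP0 of the ribosomal stalk has it and fell by 1.58, which cyclic loess took to -0.28 and 0.54, neither past the threshold. RPL35 and RPS18 have it too, and their changes of -0.09 and 0.46 did not pass. The strongly falling SLC38A2, BMPR1A and CLTC lack it at this start. Searched on the transcribed strand as C at the first base and C or T at the next 4, the motif was found at 1104 of 27305 starts in the table (4.04%) and at 649 of 13269 measured genes with a start (4.89%). Of these 649 genes 43.0% were lower, with a median of -0.56, against 32.8% and -0.30 for the others, and after cyclic loess the medians were -0.03 and 0.05. Within ribosomal proteins 24 of 42 genes with the motif and 15 of 24 without it were lower, with medians of -0.97 and -1.33. Among translation factors the order was the other way, with 13 of 14 lower with the motif (median -1.93) and 29 of 39 without it (median -1.40). Genes with the motif were also brighter, with a median level on the induced untreated arrays of 3.66 against 3.30. For translation factors it was 6.18 with and 4.58 without the motif, and for ribosomal proteins 5.74 and 5.69. The part of level in these comparisons was not tested. A first-listed start need not be the one U2OS cells use.

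Of 77 cytosolic ribosomal proteins, 47 (61.0%) fell and 0 rose, with a median of -1.11 against -0.27 for all genes. Their median level on the induced untreated arrays was 5.73. Of all genes at 4.92 or above on those arrays 85.2% fell, with a median of -1.78. RPL4 of the large subunit stood at 8.98, 8.62 and 9.01 untreated and at 6.38, 7.24 and 6.68 after Xrn1. RPS4X of the small subunit changed by -2.08, and RPS27L, a paralogue of another small subunit protein, by -2.25. RPS18 stood at 5.61, 4.83 and 5.73 untreated and 5.62, 6.16 and 5.75 with Xrn1, with overlapping groups. Cyclic loess turned this list: its median became 0.43, with 28 higher and 1 lower, and RPL4 (-0.03) and RPS4X (-0.40) lost their calls. Ribosomal proteins have many processed pseudogenes, and probe sets may read them as well.

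Most initiation and elongation factors fell (79.7%). Their median level on the induced untreated arrays was 4.94, and 85.2% of all genes at 4.92 or above fell. Of 64 genes matched by name, which include the eIF2 kinases and the eIF4E-binding proteins, 51 fell and 1 rose, with a median of -1.61. EIF3L, a subunit of the factor that recruits the small ribosomal subunit, stood at 8.29, 8.16 and 7.86 and then at 4.26, 3.98 and 4.39. EIF2S3, the subunit of eIF2 that binds GTP, changed by -3.52, EIF3E by -3.11 and EIF3M by -3.09. The single rise was EIF4E1B, a germline relative of the cap-binding factor (0.83), named after its values were seen, and it did not pass without CM5 and CM5X (0.48). Of 22 aminoacyl-tRNA synthetases and partners, which charge tRNAs, 16 fell, with a median of -1.52 and IARS1 at -3.76. After cyclic loess 30 translation factors and 10 synthetases were lower and 3 and 1 higher.

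The nuclear-encoded RNAs of the mitochondrial ribosome and the respiratory chain fell in 43.4% and 49.4% of cases, against 31.8% of all genes. Of 76 mitochondrial ribosomal proteins 33 fell, with a median of -0.73, among them MRPL42 (-3.02) and MRPL3 (-2.33). Of 81 nuclear-encoded subunits of oxidative phosphorylation 40 fell and 1 rose, with a median of -0.76. ATP5F1B, the catalytic beta subunit of ATP synthase, stood at 9.34, 9.64 and 9.24 untreated and at 5.76, 5.74 and 5.91 after Xrn1. NDUFA9 of complex I changed by -3.13 and UQCRC2 of complex III by -2.87, while NDUFA1, a small subunit of complex I named after its values were seen, rose by 1.00 and did not pass without the filter on dim probe sets (0.73). Cyclic loess took the medians of both lists to 0.00 and 0.17, with 19 lower and 9 higher mitochondrial ribosomal proteins and 15 lower and 17 higher respiratory chain subunits.

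In the secretory pathway many RNAs fell. The translocon and ER chaperone lists below had 88.2% and 73.9% of members lower. Their median levels on the induced untreated arrays were 5.65 and 5.83, and 85.2% of all genes at 4.92 or above fell. At the ER membrane, 30 of 34 genes of the translocon, which threads new proteins into the ER, and of the oligosaccharyltransferase, which adds the N-linked sugar, fell, with a median of -1.75. STT3A, a catalytic subunit of the transferase, stood at 7.47, 7.85 and 7.38 untreated and at 4.11, 3.46 and 4.45 after Xrn1. MAGT1 changed by -3.26, RPN2 by -3.10 and TRAM1, a partner of the translocon, by -3.03. Inside the ER, 17 of 23 chaperones and disulphide isomerases fell (median -1.57), with ERP44 at -3.26, HSP90B1, the ER form of HSP90, at -3.02 and PDIA6 at -2.92. After cyclic loess 18 of the first and 9 of the second list were lower and 0 and 2 higher.

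Among cargo receptors and the related TM9SF membrane proteins, 11 of 14 fell, with a median of -1.53. Their median level on the induced untreated arrays was 5.17, and 85.2% of all genes at 4.92 or above fell. TMED7, a cargo receptor between ER and Golgi, stood at 7.64, 6.19 and 7.16 and then at 2.82, 3.60 and 3.35, so that CM5 was the lowest untreated sample and still above all Xrn1 samples. TM9SF2 changed by -3.72 and TM9SF3 by -3.62. Of 53 coat and adaptor genes 36 fell (median -1.29), with SEC23A of the COPII coat at -3.41, COPB1 of the COPI coat at -3.38 and the clathrin adaptor AP1G1 at -3.20. Of 56 RAB small GTPases, which direct vesicles to their targets, 27 fell (median -0.63), with RAB14 at -2.89 and RAB11A of recycling endosomes at -2.79. After cyclic loess 5 of the cargo receptor list, 26 of the coats and 18 of the RAB genes were lower and 1, 6 and 7 higher.

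Nuclear transport was among the lists with the most negative medians. Importins and exportins fell in 88.9% and pore proteins in 80.0% of cases. Their median levels on the induced untreated arrays were 5.21 and 4.54. Of all genes at 4.92 or above on those arrays 85.2% fell, with a median of -1.78. Of 27 importins and exportins 24 fell and 1 rose, with a median of -2.01. KPNA2, an adaptor that binds classical nuclear import signals, stood at 9.27, 9.63 and 8.81 untreated and at 5.19, 5.48 and 5.65 after Xrn1. CSE1L, which returns such adaptors to the cytoplasm, changed by -3.65, IPO7 by -3.56 and IPO5 by -3.52. The one that rose was KPNA7, a germline importin named after its values were seen (1.20). Of 30 nuclear pore proteins 24 fell and 1 rose, with a median of -1.86. NUP98 changed by -3.17 and the scaffold protein NUP107 by -3.15, and the testis gene NUP210L, also named after its values were seen, by 1.06. After cyclic loess 21 and 22 were lower and 1 and 1 higher, and the medians moved to -1.12 and -1.13.

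Most cell cycle RNAs fell. Mitotic, replication and splicing genes fell in 86.2%, 85.1% and 71.2% of cases. Their median levels on the induced untreated arrays were 4.81, 4.36 and 4.72. In the brightest class, at 4.23 or above on those arrays, 74.1% of all genes fell. Of 58 mitotic genes 50 fell, none rose and the median was -1.88. AURKA, the kinase of the spindle poles, stood at 7.12, 7.14 and 6.70 untreated and at 3.71, 2.79 and 3.52 after Xrn1. KIF11, the kinesin that separates the poles, stood at 5.93, 5.23 and 5.57 untreated and 2.43, 2.05 and 2.58 with Xrn1. DLGAP5 changed by -3.38 and the cyclin CCNB2 by -3.15. Of 47 DNA replication genes 40 fell (median -1.44), with PRIM1, a primase subunit, at -3.03, RRM1, the large subunit of ribonucleotide reductase, at -2.96 and the origin licensing factor CDC6 at -2.77. Of 66 spliceosome, hnRNP and SR protein genes 47 fell and 1 rose, the SR protein SRSF12 (1.00, named after its values were seen, and 0.46 without CM5 and CM5X, which did not pass). SF3B3 of the U2 particle changed by -2.86 and SRSF1 by -2.53. After cyclic loess 36 mitotic, 24 replication and 14 splicing genes were lower and 0, 1 and 7 higher.

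Most chaperone and proteasome RNAs fell, in 82.8% and 82.6% of cases. Their median levels on the induced untreated arrays were 5.76 and 5.20, and 85.2% of all genes at 4.92 or above fell. Of 29 genes of the TRiC chaperonin, which folds actin and tubulin, and of cytosolic heat shock proteins, 24 fell, with a median of -2.02. HSPA8, the constitutive HSP70, stood at 9.55, 10.08 and 9.40 untreated and at 5.67, 6.16 and 6.15 after Xrn1, and the chaperonin subunit CCT2 at 6.97, 7.31 and 6.88 untreated and 3.58, 3.41 and 4.37 with Xrn1. Of 46 proteasome subunits 38 fell (median -1.70), with PSMA4 of the core ring at -3.52 and PSMB6, a catalytic subunit, at -2.82. Of 35 ubiquitin-conjugating enzymes and cullins 20 fell (median -1.02), among them CUL4B (-2.79) and CUL2 (-2.33). Cyclic loess left 16, 22 and 13 of these lists lower and 1, 1 and 4 higher.

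Of 38 actin, tubulin and intermediate filament genes 27 fell (71.1%), with a median of -1.54. Their median level on the induced untreated arrays was 5.77, and 85.2% of all genes at 4.92 or above fell. The tubulin TUBA1C stood at 8.59, 8.89 and 7.93 untreated and 5.49, 6.16 and 6.40 with Xrn1, and the cytoplasmic actin ACTG1 at 9.03, 9.11 and 8.79 untreated and 6.44, 6.82 and 6.96 with Xrn1. The 3 Xrn1 values were the lower ones in both genes and did not overlap the untreated values. Cyclic loess took the median of the list to -0.00, with 4 lower and 9 higher, and neither TUBA1C (-0.52) nor ACTG1 (-0.17) passed.

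Among metabolic genes, 17 of 20 glycolytic enzymes fell (85.0%), with a median of -1.73. Their median level on the induced untreated arrays was 5.68, and 85.2% of all genes at 4.92 or above fell. LDHA, the lactate dehydrogenase subunit induced by HIF1A, stood at 9.33, 9.40 and 8.95 untreated and at 5.87, 6.21 and 6.20 after Xrn1, and GPI changed by -2.31. Of 22 sterol synthesis enzymes 12 fell (median -1.12), with DHCR7, which makes cholesterol from its last precursor, at -3.16 and SQLE, which epoxidises squalene, at -2.39. Of 36 amino acid transporters 14 fell (38.9%, against 31.8% of all genes) and 3 rose, with a median of -0.47. After SLC38A2 came SLC7A6 (-2.50), the cationic transporter SLC7A1 (-2.35) and the large neutral transporter SLC7A5 (-2.29, and -0.54 after cyclic loess, which did not pass). Without CM5 and CM5X 0 transporters rose, and after cyclic loess 6 glycolytic, 7 sterol and 10 transporter genes were lower and 0, 4 and 7 higher.

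Genes of bone and matrix went both ways. Of 84 integrins, collagens and other matrix proteins, 26 fell and 21 rose, with a median of 0.03. The share that fell, 31.0%, was close to the 31.8% of all genes, of which 7.24% rose. ITGB1, the common beta subunit of many integrins, stood at 8.82, 8.70 and 8.44 untreated and at 5.31, 5.16 and 5.66 after Xrn1. THBS1 changed by -3.10, fibronectin (FN1) by -2.83 and ITGAV by -2.69. The rises were led by the collagen COL6A5, named after its values were seen, which stood at 2.48, 2.0 and 2.69 and then at 3.85, 3.74 and 3.80. Without CM5 and CM5X 25 members fell and 6 rose, and after cyclic loess 17 were lower and 36 higher. Of 36 genes of BMP and TGF-beta signalling 18 fell and 0 rose (median -0.82). Besides BMPR1A these included SMURF2, a ubiquitin ligase for the receptors (-3.12), the TGF-beta receptor TGFBR1 (-2.67) and BMPR2, the partner of BMPR1A (-2.20). Without CM5 and CM5X 23 of this list fell (median -1.30), and after cyclic loess 10 were lower and 5 higher.

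The mRNAs of the cells' own cap and decay enzymes were read beside these groups. Of 14 genes of nuclear capping and cap binding 10 fell, with a median of -1.06. RNGTT, the capping enzyme, stood at 4.28, 2.77 and 4.33 untreated and at 2.37, 3.23 and 2.76 after Xrn1, with CM5 below CM5X, and its change of -1.01 passed (adjusted p = 0.0112) but did not after cyclic loess (-0.71) or centring (-0.65). RNMT, the cap methyltransferase, changed by -2.92 and NCBP1, the large subunit of the nuclear cap-binding complex, by -2.38. XRN1 itself stood at 4.12, 2.58 and 3.99 untreated and 2.52, 3.06 and 2.65 with Xrn1, a change of -0.82 (adjusted p = 0.0434), and again CM5 lay below CM5X. That call also ended after cyclic loess (-0.61) and centring (-0.46), and both genes' calls ended with each gene's own spread. Of 22 genes of decapping and 5' decay 13 fell (median -0.88), with the helicase DDX6 at -3.39 and the nuclear exonuclease XRN2 at -3.14. Of 18 deadenylase genes, whose products shorten the poly(A) tail, 15 fell (median -1.44), with the scaffold CNOT1 at -3.58 and the nuclease CNOT7 at -3.40. After cyclic loess 6 genes of capping, 8 of decapping and 11 deadenylases were lower and 0, 2 and 0 higher.

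Of 20 RNA exosome genes, which degrade RNA from the 3' end, 14 fell and 1 rose. EXOSC2 changed by -2.97 and DIS3, the catalytic subunit, by -2.21. The one that rose was EXOSC4, a ring subunit named after its values were seen, with untreated levels of 3.82, 2.71 and 4.10 and Xrn1 levels of 4.57, 5.33 and 4.68 (1.31), and it did not pass without CM5 and CM5X (0.66). Of 13 genes of nonsense-mediated decay 9 fell, with the kinase SMG1 at -2.41 and UPF2 at -2.11. The 13 measured genes that published studies of cytoplasmic capping name, some of them chosen on these samples and so no independent evidence, fell in 8 cases, with VDAC3, a channel of the outer mitochondrial membrane, at -3.06 and ZNF207 at -2.93. After cyclic loess 12 exosome genes, 8 genes of nonsense-mediated decay and 5 of the published genes were lower and 4, 0 and 2 higher.

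Few short-lived RNAs passed. Of 49 immediate early and other short-lived mRNAs 5 fell (10.2%) and 3 rose, with a median of -0.12, where 31.8% of all genes fell. The list's median level on the induced untreated arrays was 3.47. In the level class around it, from 3.07 to 3.53, 21.8% of genes fell and 9.59% rose, with a median of -0.10. The part of level in this list was not tested. KLF10, a transcription factor induced by TGF-beta, changed by -2.16 and MCL1, an inhibitor of apoptosis, by -1.44, which was -0.19 after cyclic loess and did not pass. EGR4 stood at 4.14, 2.95 and 4.31 untreated and at 4.88, 5.65 and 4.93 after Xrn1, a rise of 1.35 that did not pass without CM5 and CM5X (0.68), where 11 members fell and 0 rose. Of 33 genes of the integrated stress response 20 fell (median -0.89), of 26 genes of p53 and its targets 11 fell (median -0.67), and of 24 interferon-induced and RNA sensor genes 7 fell (median -0.42). These are 60.6%, 42.3% and 29.2%, so the share of the interferon list was close to the 31.8% of all genes. No member of these 3 lists rose. Without CM5 and CM5X the median of the interferon list was -0.10. Examples were ALDH18A1 of proline synthesis (-2.93), MDM2, the ligase of p53 (-2.56), and IFIT1, which binds RNA with an aberrant 5' end (-1.74). After cyclic loess the short-lived mRNAs had 1 lower and 15 higher members and a median of 0.47, and 11, 10 and 6 members of the other 3 lists were lower and 3, 5 and 3 higher.

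Families that are silent or dim in most tissues were also counted. Of 42 measured olfactory receptors 2 fell and 17 rose, with a median of 0.43, and without CM5 and CM5X 1 rose. Of 8 taste and vomeronasal receptors 0 fell and 2 rose, of 35 keratin-associated proteins 0 fell and 1 rose, and neither of 2 defensins passed. After cyclic loess 15 olfactory, 3 taste and vomeronasal and 11 keratin-associated genes were higher and 3, 0 and 2 lower. Zinc finger transcription factors, a large family of mostly dim mRNAs, fell in 166 of 435 cases and rose in 10, with a median of -0.53, and 161 were lower and 48 higher after cyclic loess.

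The largest rise was that of MYADML2, which stood at 3.29, 3.38 and 4.65 untreated and at 6.22, 4.69 and 6.46 after Xrn1 (2.01, adjusted p = 4.87e-08). CD302, a C-type lectin receptor, stood at 1.87, 1.54 and 2.01 untreated and 3.49, 4.01 and 3.36 with Xrn1, and IL37, a cytokine of the interleukin-1 family, at 3.09, 2.30 and 3.05 untreated and 4.03, 4.57 and 4.72 with Xrn1. The groups did not overlap in these 3 genes, although the lowest Xrn1 value of MYADML2 was close to its highest untreated one. The other rises among the 12 largest were ADAM5 (1.91) and OR7A2P (1.88), the testis chaperone DNAJB8 (1.67), OTOL1, a collagen-like protein of the inner ear (1.67), GSTA3, a glutathione transferase (1.62), TSBP1 (1.60), ADAMDEC1 (1.59), CD200R1L (1.58) and the olfactory receptor OR2F2 (1.55). When the spread was taken gene by gene, MYADML2 (adjusted p = 0.0683), OR7A2P (0.0529) and OR2F2 (0.0589) did not pass, and OR2F2 did not pass without CM5 and CM5X (0.97). When dim probe sets were let in, ADAM5 (0.72), CD200R1L (0.72), CD302 (0.69), GSTA3 (0.70), OR7A2P (0.02) and TSBP1 (0.66) did not pass.

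Some bright RNAs did not fall. Among the 1689 brightest genes on the induced untreated arrays, at a level of 4.92 or above, 1439 (85.2%) fell, 8 rose and 242 did not pass, with a median of -1.78. After cyclic loess 744 of them were lower and 232 higher. KRTAP5-3, a keratin-associated protein of hair, stood at 5.83, 6.15 and 6.45 untreated and at 7.25, 7.06 and 7.61 after Xrn1 (1.16). POU3F1, a transcription factor of the POU family, stood at 4.62, 3.59 and 4.92 untreated and 5.20, 6.03 and 5.18 with Xrn1, and DUSP23, a small phosphatase, at 4.70, 3.75 and 5.14 untreated and 5.63, 5.63 and 5.54 with Xrn1. TSPY26P (1.14), PRSS42P (0.98), WASH3P (0.97) and VAMP5 (0.93) also rose. TSPY26P, PRSS42P and WASH3P carry pseudogene names, and their probe sets may read related genes as well. The other 5 of the 12 highest bright genes, FAM162B (0.79), IDNK (0.77), FAM43B (0.74), COL8A2 (0.72) and UNC93B3 (0.70), did not pass. Of these 12 genes only KRTAP5-3 passed without CM5 and CM5X (1.29).

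**Figure D3:**
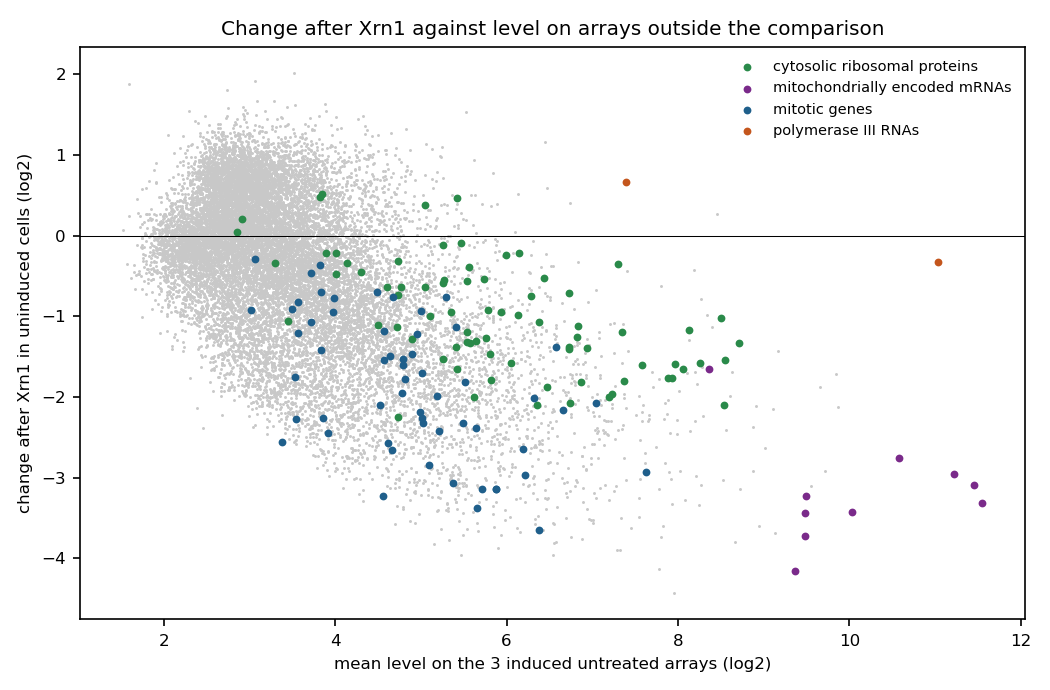
Change after Xrn1 in uninduced cells (log2) against mean level on the 3 induced untreated arrays (log2) for all 16883 genes in grey, with members of 4 lists in colour. Mitotic genes and mitochondrially encoded mRNAs lie low, ribosomal proteins spread from -2.25 to 0.51, and the 2 polymerase III RNAs lie near 0 at high levels.

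The markers of the line's mesenchymal origin were uneven in level. All 15 mesenchymal and osteosarcoma markers were measured, and their summed level ranged from 65.0 to 72.3 on the untreated and from 59.9 to 62.6 on the Xrn1 arrays. Their median level, 3.74, 3.50 and 4.07 on the untreated arrays, was close to that of the median gene, 3.61, 3.33 and 3.82. The intermediate filament VIM stood at 7.79, 7.80 and 7.77 untreated and 5.73, 5.98 and 6.35 with Xrn1 (-1.77, and 0.03 after cyclic loess), and N-cadherin (CDH2) changed by -3.12. In this list 6 genes fell and 2 rose, and none rose without CM5 and CM5X. Of 33 markers of blood, endothelial, epithelial, neural and other cells 23 were measured, with sums of 77.5 to 85.2 and 73.0 to 81.5. The keratins KRT18 (-1.52) and KRT8 (-1.46) fell, which cyclic loess took to -0.06 and 0.35, and the muscle filament DES rose (0.88), and DES did not pass without CM5 and CM5X (0.55). After cyclic loess 4 of the 23 were higher and 0 lower. The sums overlap between untreated and Xrn1 arrays for the other cell types and not for the mesenchymal list, and their part in the results was not tested. The enzyme was added to isolated RNA of a cell line, so the sums do not measure numbers of cells of a type.

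The effect of Xrn1 was compared with that in induced cells by the difference of the 2 changes, which share no arrays. It passed for 3687 genes (21.8%), with the uninduced change the more negative for 3479 (20.6%) and the more positive for 208 (1.23%). IFITM3, an interferon-induced membrane protein that blocks virus entry, stood at 4.56, 4.56 and 4.24 untreated and at 2.64, 1.94 and 2.53 after Xrn1 in uninduced cells. It changed by -2.08 in uninduced and by 1.10 in induced cells, a difference of -3.18 ± 0.48 (SE). ND4 differed by -2.67, TMEM258, a subunit of the oligosaccharyltransferase, by -2.64, MRPS12 of the mitochondrial ribosome by -2.50 and RPS13 by -2.48. In the other direction CD302 differed by 2.39, OR2F2 by 2.34, the drug-metabolising CYP3A4 by 2.16, CD200R1L by 2.13 and VHLL by 2.02. Without CM5 and CM5X 1 gene passed, IFITM3 (-2.91). With limma and each gene's own spread 0 passed, although 6306 had an unadjusted p under 0.05, and 423 passed after cyclic loess. CM1, the first induced untreated array, had 327 genes above a level of 6. The others of its group had 823 and 596, and the induced Xrn1 arrays 201, 144 and 298. Only uninduced arrays were left out in turn, so the part of CM1 in these differences was not tested.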

How the data were processed

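The deposited values are log2 probe set levels that the authors made with RMA (background correction, normalisation across arrays and summary of probes) in oligo, per the submitters' processing notes, 1 value per probe set and array, and they were not normalised again. Neither the version nor the array annotation is given in the sources used here. Of 1411399 probe sets, 357604 have 1 gene symbol in the platform annotation, 15322 several and 1038473 none. Symbols were updated through RefSeq (19560 in all: 16472 current, 2966 updated, 122 kept). Probe sets with a mean over 12 arrays above the median of all probe sets (2.04) were kept, 258175 in all. A gene's value is their mean, for genes with at least 3.

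Group means were fitted to 12 arrays with limma 3.58.1 in R 4.3.3 (lmFit, eBayes) and adjusted by Benjamini-Hochberg over 16883 genes, with a threshold of 0.05. The prior was infinite, and all genes share an SD of 0.418. The alternatives were the median of probe sets, other filters (none, above 2.76, 1 probe set), centring, cyclic loess and a trended robust prior. Others were each gene's own spread, the 6 arrays alone, a replicate block and a threshold on fold (1.5). Each uninduced array was also left out in turn, as were both CM5 arrays together.

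The members and gene lists were chosen with earlier results of these data known, so lists have counts and medians and no test. Named genes were the 12 largest falls and rises that passed without overlap and up to 4 members per list by p. Added were the 12 highest changes among the brightest genes, the 5 largest differences from induced cells each way, RNGTT and XRN1. Outside the lists, provisional names, antisense loci, MIR and SNOR names and pseudogenes named with P and a number were left out. Pseudogene names that end in P alone, such as OR7A2P, stayed in. Other named genes are marked in the text. Classes of probe set number and promoter GC and the start motif were added after the data were seen. Promoter sequences are from RefSeq, GRCh38.p14.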

Additional observations from a re-analysis of the deposited data

Results flagged for a closer look

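Each gene below was marked because its change after Xrn1 in uninduced cells differed from that in induced cells (limma adjusted p for the difference under 0.05). Values are the uninduced change minus the induced change on the log2 scale, with a standard error of 0.48. Such a difference passed for 21.8% of all genes. Among the mitochondrially encoded mRNAs it was -2.67 for ND4, -2.15 for ND2, -1.78 for ND1 and -1.67 for COX3. Among translation and ribosome genes it was -2.50 for MRPS12, -2.48 for RPS13, -1.84 for MRPL42, -1.77 for EIF3L and -1.30 for RPS27L. Among genes of the ER and of vesicle traffic it was -2.64 for TMEM258, -1.49 for AP1G1, -1.43 for RAB11A, -1.34 for RPN2, -1.32 for ERP44, -1.30 for ERGIC2 and -1.28 for STT3A. Among genes of nuclear transport it was -1.59 for NUP98, -1.29 for CSE1L and -1.29 for NUP107. Among genes of RNA decay and RNA regulation it was -1.87 for ZNF207, -1.66 for SNHG1, -1.45 for XRN2, -1.37 for CNOT1, -1.28 for TUG1 and -1.27 for CNOT7. Among interferon-induced genes it was -3.18 for IFITM3 and -1.45 for IFIT1. The other negative differences were -1.84 for SLC7A6, -1.79 for DHCR7, -1.56 for LPCAT3, -1.41 for RNFT1, -1.38 for HIF1A, -1.34 for PSMB6, -1.34 for KLF10, -1.33 for CCT2, -1.31 for ATP5F1B, -1.31 for CUL4B, -1.29 for AURKA, -1.28 for KIF11, -1.28 for CDH2, -1.28 for SLC71A2 and -1.25 for ALDH18A1. The positive differences were 2.39 for CD302, 2.34 for OR2F2, 2.16 for CYP3A4, 2.13 for CD200R1L, 2.02 for VHLL, 1.88 for ADAMDEC1, 1.72 for DNAJB8, 1.48 for ADAM5 and 1.26 for NUP210L.

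Of these 51 genes only IFITM3 passed without CM5 and CM5X, and 0 passed with limma and each gene's own spread, where 6306 of all genes had an unadjusted p under 0.05. The correlation between CM5 and CM5X over genes was 0.309, and CM5 lay more than 1 below both other untreated samples for 3281 genes. The part of these samples, or of CM1, in each difference was not tested gene by gene. No group had the 4 samples that the test for a single far sample needs.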

How the results depend on the processing

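Of the 153 genes named above, 125 kept their call (lower, higher or neither) after cyclic loess, 144 after centring and 141 with the median of probe sets. The call was kept by 142 with dim probe sets let in, 144 with the spread taken gene by gene and 138 without CM5 and CM5X. A gene that passed in neither fit counts as kept whatever its sign. Cyclic loess turned 8: H1-4 to 0.69, H2AC21 to 0.46, KRT8 to 0.35, ND6 to 0.32, RN7SK to 2.42, RPL35 to 1.52, RPLP0 to 0.54 and VIM to 0.026. The cause was not tested. A fold of at least 1.5 left 3017 of 6590 genes, 2979 lower and 38 higher. Against 1223 higher genes, the median of probe sets gave 528, centring 3930, cyclic loess 3695 and leaving out CM5 and CM5X 278, and leaving out 1 replicate gave 469 to 1509. The 3687 genes whose change differed from that in induced cells became 1465 with the median of probe sets, 1165 with only the brighter probe sets, 2360 with 1 probe set per gene, 1856 after centring, 423 after cyclic loess, 0 with each gene's own spread, 1 with a fold of at least 1.5 and 1 without CM5 and CM5X, and leaving out 1 replicate gave 64 to 4426, the lowest without Xrn1 replicate 2. With the replicate number as a block (replicate block), 4908 genes were called, 4456 lower and 452 higher, and 145 differed from induced cells. The series design states no pairing, so same-numbered samples were not treated as pairs in the main fit. They deviated in opposite directions from their group means (correlations of -0.55, -0.71 and -0.24 across genes). Of the 3 untreated samples 0 lay closest to their own number. These values cannot show whether same-numbered samples come from 1 RNA preparation, and the labels do not say. The 3 arrays per group limit the precision. Protein length classes were not run, as no protein table was used here.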
